A study of Mus musculus with 9 samples.

Results

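The proximal tubule is the first tubular segment of the nephron, and its maturation in the embryonic kidney was followed here through 10 genes of this segment. These were *Lrp2*, *Cubn*, *Hnf4a*, *Slc34a1*, *Slc3a1*, *Slc5a2*, *Slc22a6*, *Slc27a2*, *Aqp1* and *Fbp1*. They were selected from the table by gene symbol, and each matched 1 of the 24138 loci in the table of bulk RNA-seq values from whole mouse kidneys at embryonic day E15.5. The kidneys gave 9 libraries, 3 of each of 3 genotypes, which are called WT, HET and MUT and numbered 1 to 3 within a genotype. WT kidneys were Ntn1fl/fl and carried no Cre. HET kidneys were Foxd1GC/+;Ntn1fl/+ and MUT kidneys were Foxd1GC/+;Ntn1fl/fl, so that both carried the Foxd1 GFP-Cre allele, which drives recombination in the stromal progenitors and their descendants and takes the place of 1 *Foxd1* copy. All 9 kidneys carried at least 1 floxed allele of *Ntn1*, which encodes the secreted guidance cue netrin 1, and came from 3 crosses of Ntn1fl/fl with Foxd1GC/+;Ntn1fl/+ mice. The comparisons ask whether genes of the proximal tubule, an epithelium that does not arise from the Cre-expressing stroma, differ when stromal *Ntn1* is deleted (MUT against HET), and how each Cre genotype compares with kidneys without Cre.

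The proximal tubule reclaims most of the filtered salt, sugar, amino acids, phosphate and protein. It forms from nephron progenitors through a renal vesicle and S-shaped body, and *Hnf4a*, a nuclear receptor, is needed for its cells to mature. Filtered proteins are taken up at the brush border by megalin and cubilin, solutes by dedicated carriers, and the cells also make glucose and burn fatty acids.

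Values are FPKM, fragments per kilobase of transcript scaled to the size of the library, as computed by the authors, so that levels can be compared between genes per length. FPKM hide the number of reads behind a value, and precision is given by the spread of the 3 libraries. Total FPKM per library ran from 453753 in WT-1 to 545598 in WT-2. The steps between the lowest FPKM gave a depth relative to WT-1 of 0.574 for WT-2, 0.616 for MUT-3 and 0.908 to 1.28 for the other libraries, among them HET-3 at 1.06. *Ntn1* was at 26.1, 28.9 and 17.8 FPKM in WT-1, WT-2 and WT-3, at 12.3, 12.0 and 16.5 in the HET and at 10.8, 16.5 and 11.0 in the MUT libraries. All 6 libraries with Cre were below all WT libraries, and HET and MUT overlapped, so *Ntn1* over the whole locus separates carriers of Cre from WT but not MUT from HET. *Foxd1* was at 33.7, 33.4 and 25.8 FPKM in WT, 21.7, 20.2 and 21.5 in HET and 24.8, 22.5 and 24.3 in MUT, and was thus also lower in every library with the Cre allele. A single library stood apart for RNA of another tissue. In HET-2 the hepatocyte gene *Alb* was at 244 FPKM, against 0.213 to 4.77 in the other 8, and the 8 liver genes examined summed to 828 FPKM in HET-2 against 32.0 to 57.4 elsewhere. *Hnf4a*, *Fbp1* and *Slc27a2* are also made in fetal liver, so the medians of the members, their non-overlap count between HET and WT, the values of these 3 genes and the correlations are also given without HET-2 below.

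The proximal tubule genes varied together from kidney to kidney within HET and within MUT, largely through 2 low kidneys. On the log2 scale the differences between genotypes were smaller than the s.d. within a genotype for *Fbp1*, *Slc22a6*, *Slc34a1*, *Hnf4a* and *Aqp1*, and 1 or more of them were larger for *Cubn*, *Slc5a2*, *Lrp2*, *Slc3a1* and *Slc27a2*. All 10 genes were lowest in HET-3 among the HET libraries and lowest in MUT-3 among the MUT libraries, while 8 were highest in HET-2, 7 in MUT-2 and 7 in WT-3. No gene passed the test in any of the 3 comparisons. The 3 least abundant genes, *Cubn*, *Slc5a2* and *Slc3a1*, lay below every WT library in 1 or both Cre genotypes, 2 of 10 genes in each comparison with WT, where 1.92% of all loci with at least 1 FPKM had MUT and 1.44% had HET wholly below WT.

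The promoter of *Slc3a1* is shown because it was the one promoter found, among those of the 9 genes with an entry, that held the letters of an HNF4 site, the motif of the factor that *Hnf4a* encodes. The line gives the 250 bases before the transcription start in RefSeq (GRCm38.p6), plus strand, 5′ to 3′, with the site letters CAAAGTCCA in capitals.
Slc3a1, chr17:85028097-85028346: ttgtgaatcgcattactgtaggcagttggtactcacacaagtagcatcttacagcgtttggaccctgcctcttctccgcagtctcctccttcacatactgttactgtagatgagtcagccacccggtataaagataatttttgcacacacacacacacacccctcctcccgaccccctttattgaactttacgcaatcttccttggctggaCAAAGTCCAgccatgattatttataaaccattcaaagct

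RefSeq held 10 promoters of 9 of the genes, since *Hnf4a* has 2 starts and *Slc5a2* had no entry. The HNF4 letters or their reverse complement TGGACTTTG were found in *Slc3a1* only, 39 bases before the start, and occur in 126 of all 32851 promoters of this length (0.384%). Another motif was also searched for and is not reported here. A match of letters is a description and not a binding site.

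The receptors of protein uptake were among the most even of the 10 genes within WT. *Lrp2* (XLOC_012350; mm10, chr2:69424335-69586067, minus strand), which encodes megalin, was at 14.3, 12.2 and 13.7 FPKM in WT-1, WT-2 and WT-3. Its level was 13.3, 12.6 and 9.01 FPKM in the HET and 13.6, 10.2 and 8.65 FPKM in the MUT libraries. Both Cre genotypes reached into the WT range with library 1 and lay below it with library 3. *Cubn* (XLOC_012107; chr2:13276338-13491876, minus strand), which encodes cubilin, the partner of megalin, was at 3.88, 3.67 and 4.57 FPKM in WT. It was at 3.40, 3.44 and 2.92 FPKM in HET and at 3.64, 3.23 and 2.32 FPKM in MUT. Every one of the 6 libraries with Cre was below the lowest WT library, with MUT-1 and WT-2 the nearest pair.

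*Hnf4a* (XLOC_011935; chr2:163547188-163572907, plus strand) was at 27.8, 21.0 and 21.5 FPKM in WT. It was at 22.5, 25.1 and 15.9 FPKM in HET and at 24.6, 32.9 and 17.8 FPKM in MUT. The highest and the second lowest value of this transcription factor both belonged to MUT kidneys, and the 3 genotypes overlapped throughout. The deposited locus begins at the downstream of the annotated starts.

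The carriers of phosphate, amino acids and glucose differed widely in level. *Slc34a1* (XLOC_005323; chr13:55399648-55415232, plus strand), the sodium-phosphate cotransporter of the brush border, was the most abundant member with a mean of 29.3 FPKM over the 9 libraries. It was at 38.0, 27.3 and 35.3 FPKM in WT, at 29.1, 34.3 and 16.0 FPKM in HET and at 28.4, 36.7 and 18.5 FPKM in MUT. Its 2 lowest libraries, HET-3 and MUT-3, lay apart from the other 7, which ranged from WT-2 to WT-1. *Slc3a1* (XLOC_009078; chr17:85028347-85090274, plus strand), the heavy chain of the cystine and dibasic amino acid transporter, was at 5.20, 4.52 and 7.80 FPKM in WT. It was at 3.52, 4.49 and 2.63 FPKM in HET and at 3.44, 8.29 and 2.48 FPKM in MUT. The HET libraries were all below the WT libraries, whereas the MUT libraries held both the highest and the lowest value of the 9. *Slc5a2* (XLOC_019200; chr7:128265697-128298131, plus strand), the glucose transporter SGLT2, was the least abundant member and was at 2.14, 1.81 and 2.82 FPKM in WT. It was at 2.29, 2.23 and 1.23 FPKM in HET and at 1.55, 1.50 and 1.04 FPKM in MUT. All MUT libraries were below all WT libraries, and HET-3 lay among the MUT values.

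The deposited intervals of *Slc3a1* and *Slc5a2* also span a gene on the opposite strand, and whether the counting used strand is not given in the sources used here. The gene across from *Slc3a1*, *Prepl*, had its own entry at 18.5 to 23.9 FPKM, and *BC017158*, across from *Slc5a2*, was at 11.3 to 14.1 FPKM. Both had higher FPKM than the proximal tubule gene they overlap in every library and varied less between libraries, by 1.29 and 1.25 times from lowest to highest. The interval of *Slc34a1* holds *Pfn3*, which was at 0.0513 FPKM at most, and those of *Cubn* and *Slc27a2* overlap the noncoding genes *Gm13270* and *Gm26697*, in each case on the opposite strand.

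*Slc22a6* (XLOC_010332; chr19:8617996-8628299, plus strand) encodes OAT1, the basolateral carrier of organic anions such as para-aminohippurate. It was at 7.61, 8.11 and 12.8 FPKM in WT, at 8.71, 9.03 and 4.23 FPKM in HET and at 5.25, 11.4 and 4.81 FPKM in MUT. WT-3 and MUT-2 were high, and HET-3, MUT-3 and MUT-1 were low. *Aqp1* (XLOC_017251; chr6:55336299-55348555, plus strand) encodes the water channel of the proximal tubule and thin descending limb, and is also found in blood vessels and red cells. It was at 17.9, 15.4 and 18.9 FPKM in WT, at 17.2, 21.6 and 15.4 FPKM in HET and at 18.4, 22.8 and 16.0 FPKM in MUT. It varied least of the 10 genes, by 1.48 times over the 9 libraries, and was the one gene whose 2 lowest libraries were not HET-3 and MUT-3.

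The metabolic members were a fatty acid gene and a gluconeogenic gene. *Slc27a2* (XLOC_011695; chr2:126553024-126588243, plus strand), a fatty acid transporter and very long-chain acyl-CoA synthetase, was at 9.13, 8.71 and 11.9 FPKM in WT. It was at 8.64, 10.3 and 5.32 FPKM in HET and at 5.95, 11.4 and 4.97 FPKM in MUT. *Fbp1* (XLOC_005818; chr13:62864753-62888282, minus strand), a regulated enzyme of gluconeogenesis, was at 6.77, 7.66 and 13.8 FPKM in WT. It was at 7.20, 9.83 and 3.75 FPKM in HET and at 3.85, 13.9 and 3.11 FPKM in MUT. For both genes WT-3 and MUT-2 were the highest 2 libraries, and within the MUT genotype alone *Fbp1* spanned 4.46 times. The plot of FPKM by library shows all 10 genes on this scale.

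**Figure D1:**
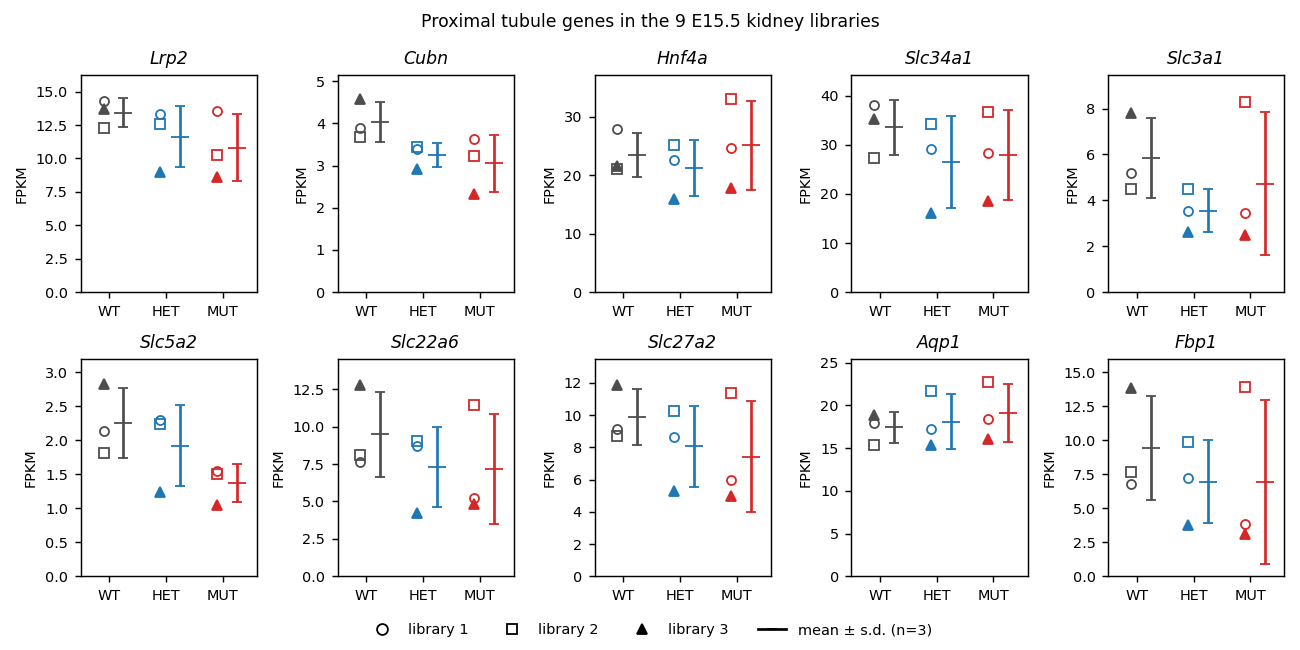
FPKM (y axis, from 0) of the 10 proximal tubule genes in WT, HET and MUT kidneys (x axis), with circles, squares and filled triangles for libraries 1, 2 and 3 and bars for the mean ± s.d. of 3 libraries. Library 3 of HET and of MUT is the lowest of its genotype in all 10 panels, and *Fbp1* runs from 3.11 to 13.9 FPKM within MUT.

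The shared pattern is seen on the log2(FPKM + 1) scale once the mean of each gene is taken out. Of the 10 genes, 9 had HET-3 and MUT-3 as their 2 lowest libraries. MUT-3 was the lowest of the 9 libraries for 6 genes and HET-3 for 4, and the highest was WT-3 for 4, MUT-2 for 4 and WT-1 for 2. Summed over the genes, the level was 133, 110 and 143 FPKM in WT-1, WT-2 and WT-3, 116, 133 and 76.4 FPKM in the HET and 109, 152 and 79.6 FPKM in the MUT libraries. The 2 low kidneys thus belonged to both Cre genotypes, and the highest sum was that of a MUT kidney. MUT-3 was among the shallower libraries and HET-3 was not. WT-2, the shallowest library, was the lowest WT library for 8 of the 10 genes. The part of depth in the pattern was not tested. In bulk RNA, fewer proximal tubule cells and less of these RNAs per cell cannot be told apart.

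**Figure D2:**
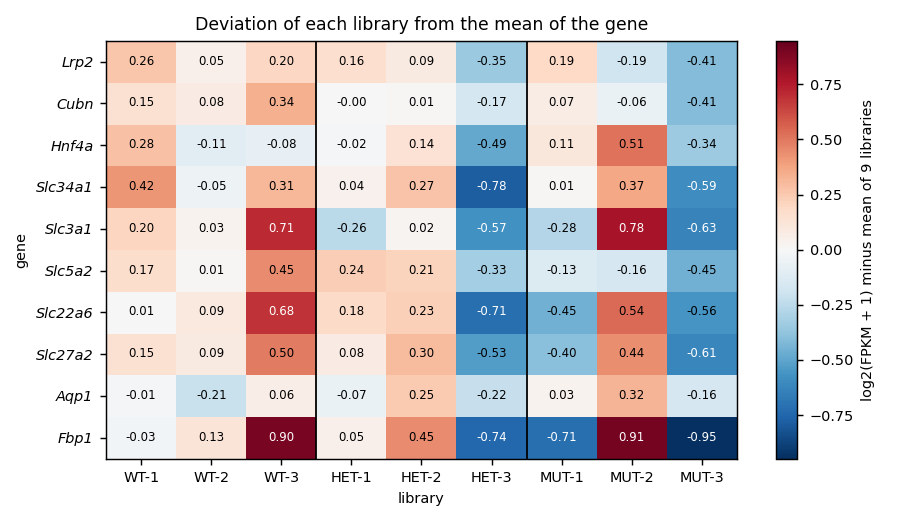
Deviation of each library (x axis) from the 9-library mean of each gene (y axis), as a log2(FPKM + 1) difference, with red above and blue below the mean and vertical lines between WT, HET and MUT. The HET-3 and MUT-3 columns are blue for every gene, and *Fbp1* has the widest range, from -0.95 in MUT-3 to 0.91 in MUT-2.

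The s.d. within a genotype, pooled over the 3 genotypes, was 0.74 for *Fbp1*, 0.51 for *Slc22a6*, 0.50 for *Slc3a1*, 0.45 for *Slc34a1* and 0.43 for *Slc27a2* on the log2(FPKM + 1) scale. It was 0.33 for *Hnf4a*, 0.25 for *Slc5a2*, 0.24 for *Lrp2*, 0.21 for *Aqp1* and 0.17 for *Cubn*. For the 7 members with a mean of at least 5 FPKM its median was 0.43, against 0.16 for all 9978 loci above that level. *Fbp1* stood at the 99.3 percentile of those loci, *Slc34a1* at the 98.6 and *Hnf4a* at the 96.3, whereas *Aqp1* stood at the 75.9 percentile. *Cubn*, with a mean of 3.45 FPKM, is not one of those loci, and its s.d. set against theirs fell at the 55.5 percentile. Genotype took up a median of 16.5% of the variance of the 7 members, and of 17.7% over all such loci. The share was highest for *Cubn* at 48.5% and *Slc5a2* at 46.8%, and lowest for *Aqp1* at 7.03%.

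MUT was compared first with HET, its control with the same Cre allele. Of the 10 genes, 7 reached a mean of 5 FPKM in either genotype and entered the limma fit on log2(FPKM + 1). None of the 7 had an adjusted p under 0.05 and none an unadjusted p under 0.05, where limma called 0% of the 10081 loci tested (0 after adjustment, with a smallest adjusted p of 0.738, and 636 at an unadjusted p under 0.05). The median difference of the 7 genes was -0.06, and that of all loci tested was -0.02. *Slc34a1* had means of 27.8 ± 9.12 FPKM in MUT and 26.5 ± 9.40 in HET (s.d., n = 3), a log2 difference of 0.08 with a 95% interval from -0.52 to 0.69 (limma adjusted p = 0.942). *Fbp1*, at 6.95 ± 6.02 and 6.93 ± 3.05 FPKM, had an interval from -1.12 to 0.78 around a log2 difference of -0.17 (limma adjusted p = 0.927). *Hnf4a* had the largest positive difference of the 7, 0.22 (SE 0.21, limma adjusted p = 0.797). With 1 library left out at a time, this difference ranged from 0.005 to 0.43. The intervals are wide enough to hold changes of either sign for every gene tested. *Cubn*, *Slc3a1* and *Slc5a2* were under 5 FPKM in both genotypes and differed by -0.08, 0.22 and -0.29 on the log2 scale (exact two-sided permutation p = 0.8, 0.9 and 0.3), where 3 libraries against 3 cannot give less than 0.1. None of the 10 genes had all MUT libraries above or all below the HET libraries, where 4.78% of the 13041 loci with at least 1 FPKM were above and 4.9% below.

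The sign of this comparison turned on single kidneys. Without HET-3 the median log2 difference was -0.26, with 6 of 7 genes lower in MUT. Without MUT-3 it was 0.18, with all 8 genes then tested higher in MUT. Without HET-2, the library with liver RNA, it was 0.11, with 6 of 7 genes higher, and *Hnf4a*, *Fbp1* and *Slc27a2* then differed by 0.35, 0.10 and 0.04, the last 2 with a changed sign. It was 0.05 without HET-1, 0.08 without MUT-1, with 6 of 8 genes higher, and -0.13 without MUT-2, with 6 of 7 lower. None of the members was called in any of these fits.

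Against WT, the MUT kidneys had lower means for 8 of the 10 genes. Of the 8 that were tested 6 were lower and 2, *Hnf4a* and *Aqp1*, higher, with a median log2 difference of -0.33 beside -0.003 over all 10096 loci. None was called by limma (adjusted p = 0.9998 for each), which called 0% of all loci here too, with 65 at an unadjusted p under 0.05. *Fbp1* had the largest difference, -0.58 (SE 0.43), from 9.41 ± 3.82 FPKM in WT to 6.95 ± 6.02 in MUT (s.d., n = 3). *Slc27a2* differed by -0.43 (SE 0.25), *Slc22a6* by -0.42 (SE 0.28), *Slc3a1* by -0.36 (SE 0.33), *Lrp2* by -0.31 (SE 0.16) and *Slc34a1* by -0.30 (SE 0.23). For each of these 6 genes MUT-1 or MUT-2 lay within the WT range or above it. *Aqp1* was at 19.1 ± 3.41 FPKM in MUT and 17.4 ± 1.80 in WT, a log2 difference of 0.12 with an interval from -0.21 to 0.44.

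*Cubn* and *Slc5a2* were the 2 genes with every MUT library below every WT library, and both were under the level tested. *Cubn* had means of 3.06 ± 0.675 FPKM in MUT and 4.04 ± 0.475 in WT (s.d., n = 3), a log2 difference of -0.32, with an exact two-sided permutation p = 0.1, the smallest that this design allows. *Slc5a2* was at 1.37 ± 0.279 and 2.26 ± 0.515 FPKM, a log2 difference of -0.46 with the same exact permutation p = 0.1. Over the 12984 loci with at least 1 FPKM, 1.92% had all MUT libraries below all WT libraries and 1.78% had them above, against 2 and 0 of the 10 genes. In the limma fit without an FPKM minimum the 95% interval of *Slc5a2* ran from -0.81 to -0.11 and that of *Cubn* from -0.71 to 0.06, and the adjusted p of both was 0.9997. For the tested genes, which do not include *Cubn* and *Slc5a2*, the size of the difference moved with single kidneys. With 1 library left out at a time their median log2 difference stayed negative, from -0.63 without MUT-2 to -0.12 without MUT-3.

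HET kidneys also had lower means than WT for 9 of the 10 genes, with *Aqp1* the exception at 18.1 ± 3.22 against 17.4 ± 1.80 FPKM (s.d., n = 3). This comparison shares its WT libraries with the previous one and its HET libraries with the first, so that the 3 are not independent. Of the 8 genes tested none was called by limma (adjusted p = 0.998 for each). The share called over all 10105 loci was 0%, and 108 loci had an unadjusted p under 0.05. The median log2 difference of the 8 was -0.33 and that of all loci 0.01. *Slc3a1* showed the largest difference, from 5.84 ± 1.73 FPKM in WT to 3.54 ± 0.933 in HET, a log2 difference of -0.58 with a 95% interval from -1.08 to -0.08 and an unadjusted limma p of 0.0265. It and *Cubn* (3.25 ± 0.286 FPKM in HET, log2 difference -0.24) were the 2 genes with all HET libraries below all WT libraries (exact two-sided permutation p = 0.1 for each), where 1.44% of 13056 loci were below and 2.57% above. *Fbp1* differed by -0.41 (SE 0.30), *Slc34a1* by -0.38 (SE 0.24), *Slc22a6* by -0.36 (SE 0.26), *Slc27a2* by -0.30 (SE 0.20), *Lrp2* by -0.20 (SE 0.14) and *Hnf4a* by -0.15 (SE 0.17). The median moved to -0.06 without HET-3, to -0.17 without WT-3 and to -0.50 without HET-2, the library with liver RNA. Without it *Aqp1* differed by -0.09, a changed sign, so that all 8 genes tested were lower in HET. Red cells make *Aqp1* too, and their genes summed to 3442 FPKM in HET-2, the highest of the 9 libraries, and their part in the value was not tested. *Hnf4a*, *Fbp1* and *Slc27a2* then differed by -0.28, -0.68 and -0.47, and *Slc27a2* joined the genes whose HET libraries were all below WT, 3 of 10 where 3.01% of all 13112 loci with at least 1 FPKM in any genotype were below. HET-2 was the highest HET library for 8 of the 10 genes, against 32.1% of all loci, so leaving it out favours this count.

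**Figure D3:**
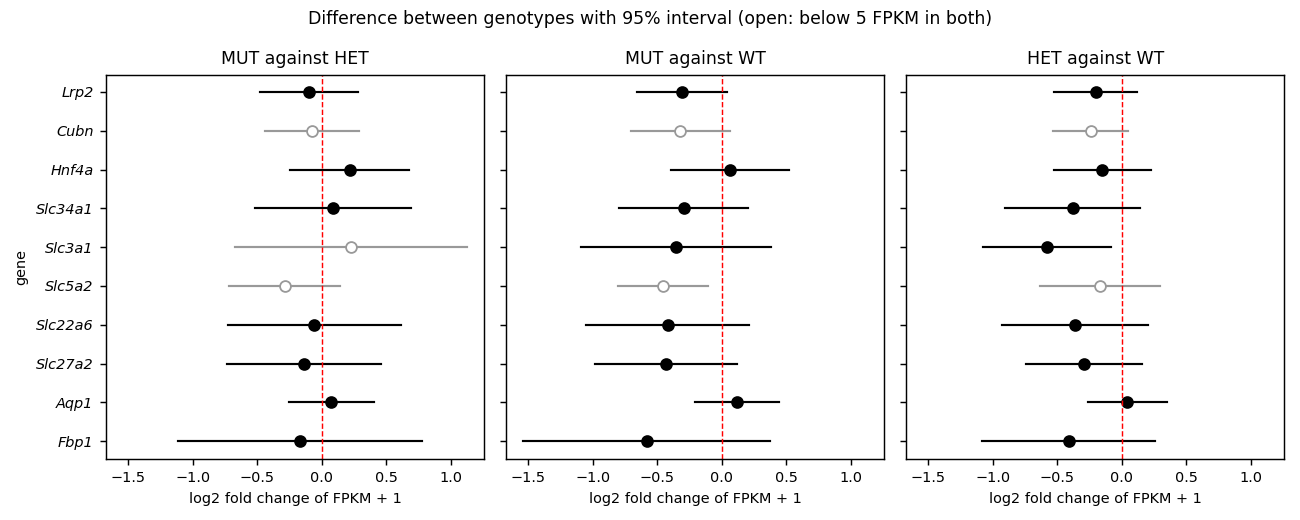
Difference between genotypes for each of the 10 genes (y axis) as a log2 fold change of FPKM + 1 (x axis), with points for the estimate and lines for limma's 95% interval. Open grey symbols are genes under 5 FPKM in both genotypes, with intervals from the fit without a minimum; each interval crosses 0 except those of *Slc3a1* in HET against WT and *Slc5a2* in MUT against WT.

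Other genes of the same segment were read from 6 lists, 85 genes in all, chosen by function. Of these, 42, 46 and 46 were tested in MUT against HET, MUT against WT and HET against WT, and none was called. Their median log2 difference was 0.06, -0.10 and -0.19 in the 3 comparisons, and it too moved with single libraries. In MUT against HET it was -0.09 without HET-3, -0.08 without MUT-2, 0.18 without MUT-3, 0.11 without HET-2 and 0.10 without HET-1. In MUT against WT it was -0.27 without MUT-2, -0.03 without MUT-3, -0.18 without WT-1, -0.16 without WT-2 and -0.06 without WT-3. In HET against WT it was -0.05 without HET-3, -0.10 without WT-3 and -0.29 without HET-2. Of the 68 with at least 1 FPKM, the HET libraries were all below the WT libraries for 8 and all above for none, where 1.44% of all loci at that level were below and 2.57% above. Without HET-2 the count below was 18, where 3.01% of all loci were below. HET-2 was the highest HET library for 53 of the 68 genes, against 32.1% of all loci. Leaving it out therefore favours this count, and the 2 shares are not a like comparison. Among the 8 were the peptidases *Dpp4*, *Enpep* and *Mep1b*, the glucose transporter *Slc2a2*, the bicarbonate cotransporter *Slc4a4* and the enzymes *Hao2* and *Acsm2*, named after their values were seen. The MUT libraries were all below the HET libraries for *Slc7a7* and *Cat*, where 4.9% of all loci were below, and all above the WT libraries for none of the 68, where 1.78% were above.

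The brush border list held 16 genes, of which 11 were tested. The log2 difference was negative for 10 of the 11 in HET against WT, where it was negative for 4810 of all 10105 loci, and for 10 of the 11 in MUT against WT, where it was negative for 5184 of 10096. In MUT against HET it was positive for 9 of the 11, and for 4631 of all 10081 loci. *Enpep*, glutamyl aminopeptidase, was at 52.6, 52.3 and 66.0 FPKM in WT and at 48.8, 45.3 and 49.2 in HET, and its MUT libraries were at 50.6, 54.5 and 45.5. *Dpp4*, dipeptidyl peptidase 4, was at 39.3, 38.5 and 53.2 FPKM in WT, 32.8, 31.7 and 36.4 in HET and 35.7, 41.3 and 32.8 in MUT. WT-3 was the highest library of the 9 for both peptidases, and HET-3 was the highest HET library for both, unlike for any member. *Anpep*, aminopeptidase N, and *Ggt1*, the gamma-glutamyl transferase, had HET-3 and MUT-3 as their lowest libraries, at 23.7 and 26.6 FPKM and at 23.4 and 25.0 FPKM. *Treh*, trehalase, was at most at 0.0427 FPKM and listed at 0 in WT-2 and HET-3.

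Among the carriers of sugars, amino acids and ions, 5 to 7 of 20 were tested. *Slc6a13*, a GABA transporter, had a mean of 8.78 FPKM, *Slc7a8*, a neutral amino acid exchanger, 7.75, *Slc2a2*, the basolateral glucose transporter, 7.23, and *Slc7a7*, a basolateral exchanger of basic amino acids, 5.60. *Slc7a8* had the largest MUT-HET difference of the 4, 0.28 (SE 0.17, limma adjusted p = 0.738). Of the organic ion carriers 4 or 5 of 13 were tested, and *Slc22a12*, the urate exchanger, was at 9.75, 7.85 and 11.4 FPKM in WT, 9.10, 10.8 and 6.03 in HET and 8.64, 13.9 and 7.19 in MUT. Its lowest library in each Cre genotype was again number 3. *Slc47a1*, a proton-coupled exporter of organic cations, differed by -0.29 (SE 0.16) between MUT and WT, while *Slc22a5*, the carnitine transporter, and *Abcc4*, an efflux pump, differed by -0.14 (SE 0.13) and -0.10 (SE 0.18), all with a limma adjusted p of 0.9998.

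Of the 22 metabolic genes 11 or 12 were tested. *Cat*, catalase, a peroxisomal enzyme of most cells, was nearly even at 47.0 to 54.0 FPKM. *Ttc36* and *Keg1* were at a mean of 30.7 and 24.4 FPKM and highest in MUT-2. *Hpd*, an enzyme of tyrosine breakdown in liver, was at 1.19 FPKM in HET-2 and at most 0.0256 elsewhere.

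The regulators and the partners of endocytosis did not all share the pattern. *Osr2*, a transcription factor of the embryonic kidney, was at 38.4, 31.1 and 23.9 FPKM in WT, so that WT-3, the highest WT library for 7 of the 10 members, was its lowest library. *Maf* had a mean of 16.0 FPKM. Of the 8 partners of endocytosis and scaffolding, the most abundant were *Gipc1* (mean 91.5 FPKM), *Slc9a3r1* (57.5 FPKM), *Pdzk1* (46.7 FPKM) and *Lrpap1*, the chaperone of megalin (46.6 FPKM). The sum of that list varied by 1.27 times from the lowest to the highest library, against 1.99 times for the summed members. *Pdzk1*, a scaffold of brush border transporters, was at 34.9 FPKM in HET-3 and 62.9 in WT-3.

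Over the 68 related genes with at least 1 FPKM, HET-3 was the lowest HET library for 56 (82.4%) and MUT-3 the lowest MUT library for 40 (58.8%). Over all 13112 loci with at least 1 FPKM, these shares were 45.5% and 32.5%. MUT-2 was the highest MUT library for 52 of the 68 (76.5%, against 30.0% of all loci), HET-2 the highest HET library for 53 (77.9%, against 32.1%) and WT-3 the highest WT library for 47 (69.1%, against 38.7%). These genes come from the same libraries as the members and are not a separate measurement of the kidneys.

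Genes of other cell types were summed in the same way. Loop and distal tubule genes summed to 104, 67.9 and 81.5 FPKM in WT, 75.5, 74.6 and 55.4 in HET and 77.7, 93.1 and 56.3 in MUT, and podocyte genes to 221, 146 and 150, to 149, 163 and 123, and to 192, 195 and 131 FPKM. Both sums were lowest in HET-3 and next lowest in MUT-3, as the sum of the proximal tubule genes was, but both were highest in WT-1. Nephron progenitor genes, led by *Cited1*, summed to 221 FPKM in WT-3, the lowest, and to 330 FPKM in MUT-3, the highest. Their sum was 259 FPKM in HET-3, the median library, and 246 FPKM in MUT-2. Early nephron genes, led by *Pax8*, were also lowest in WT-3, at 0.739 of the median library. Stromal genes, led by *Col1a1*, were lowest in WT-3 too, at 0.718 of the median, and collecting duct (*Calb1*) and endothelial (*Emcn*) genes spanned 1.21 and 1.13 times. Their part in the spread of the proximal tubule genes was not tested. Red cell genes, led by *Hbb-bs*, summed to 3442 FPKM in HET-2 and to 1856 to 2252 FPKM elsewhere, and adrenal genes, led by *Cyp11a1*, to 1.12 FPKM at most, with *Cyp17a1* listed at 0 in WT-3 and MUT-3 and *Cyp21a1* in WT-1, WT-3 and MUT-1.

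**Figure D4:**
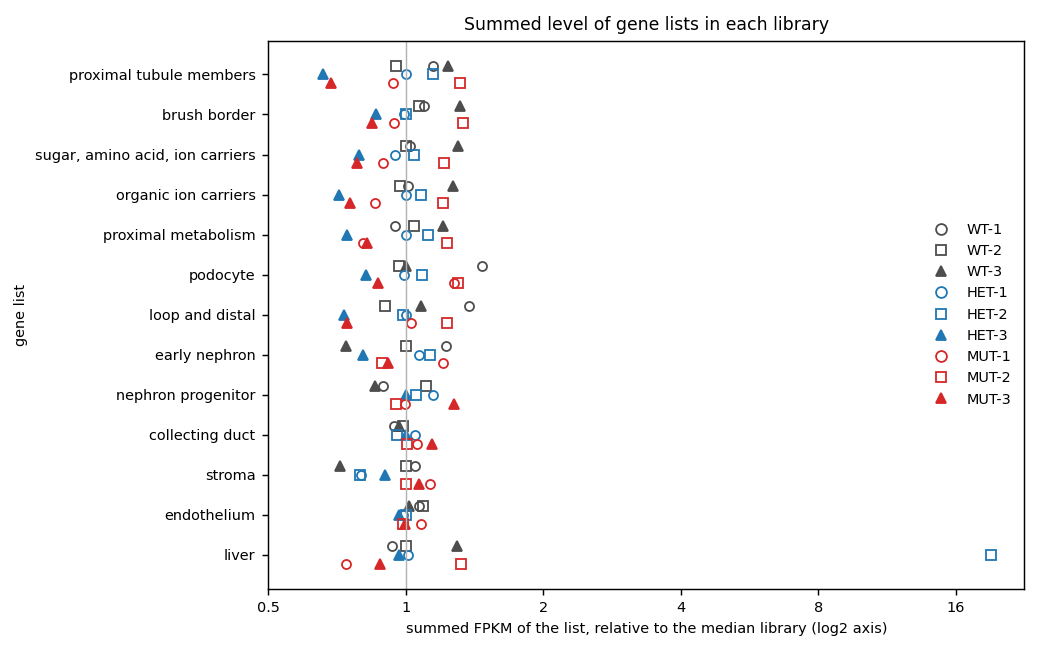
Summed FPKM of each gene list (y axis) in each library, divided by the median of the 9 libraries (x axis, log2 scale), with grey, blue and red for WT, HET and MUT and circles, squares and filled triangles for libraries 1, 2 and 3. HET-3 and MUT-3 lie left of the other libraries for the members (0.660 and 0.688 of the median) and for the loop and distal list, while the liver list has HET-2 at 19.1 times the median.

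Pairs of the 10 genes correlated with a median Pearson r of 0.70 over the 9 libraries (45 pairs, from 0.26 for *Lrp2* and *Aqp1* to 0.98 for *Slc27a2* and *Fbp1*). Without HET-3 and MUT-3 the median was 0.39, from -0.54 to 0.98, and without HET-2 alone it was 0.72, from 0.22 to 0.98. The points share libraries and genotype, and no test was made. *Slc34a1* had the highest median r with the other 9 genes, 0.79, and *Lrp2* the lowest, 0.50. *Slc3a1*, *Slc22a6*, *Slc27a2* and *Fbp1* were the tightest group, with r between 0.90 and 0.98 for each pair, and *Lrp2*, *Cubn* and *Slc5a2* paired with each other at 0.84 to 0.86.

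The mean standardized profile of the 10 genes was 0.49, -0.03 and 1.01 in WT-1, WT-2 and WT-3, 0.12, 0.54 and -1.29 in the HET and -0.23, 0.77 and -1.37 in the MUT libraries. Among 9971 other loci with a mean of at least 5 FPKM, the 5 most like it by Pearson r over the 9 libraries were *Slc6a18* (0.979), *Ggt1* (0.968), *Pck1* (0.967), *Slc47a1* (0.949) and *Napsa* (0.944). *Slc6a18*, a transporter of glycine and other neutral amino acids, was at 6.40, 4.95 and 8.57 FPKM in WT, 5.94, 6.05 and 3.43 in HET and 4.79, 6.91 and 3.38 in MUT. *Pck1*, the enzyme that commits carbon to gluconeogenesis, was at 5.41, 5.50 and 8.64 FPKM, at 5.32, 6.57 and 3.34 FPKM and at 5.31, 7.17 and 3.14 FPKM. *Napsa*, the aspartic protease napsin A, known from lung and kidney, was at 12.6, 11.5 and 15.4 FPKM, at 11.7, 15.0 and 7.12 FPKM and at 8.86, 18.9 and 7.23 FPKM. Without HET-2 the r of these 5 was between 0.943 and 0.983. All 5 were lowest in HET-3 and MUT-3, and 4 of them were on the lists above.

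**Figure D5:**
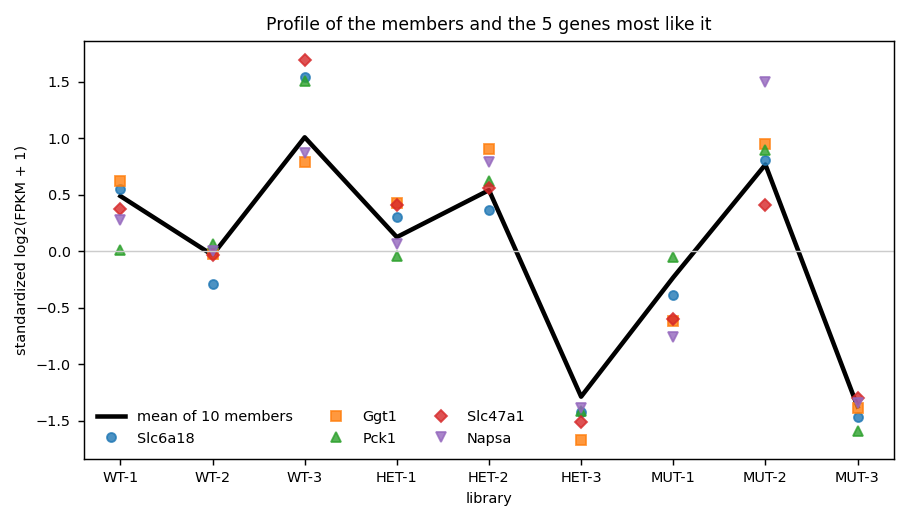
Standardized log2(FPKM + 1) (y axis) in the 9 libraries (x axis) of the 5 loci most like the members (symbols) and the mean profile of the 10 members (black line). The line and all 5 genes have their 2 lowest values in HET-3 and MUT-3.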

How the data were processed

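RNA from 9 whole kidneys, 3 of each genotype, was made into libraries with a stranded mRNA kit. Per the labels, alignment was to mm10 by STAR, transcript assembly was by Cufflinks and FPKM came from Cuffdiff, with no versions given; the authors deposited 1 FPKM per locus and library. The deposited table also holds 3 columns with the authors' mean of each genotype, which were not used. Starts of loci, which are counted from 0 in the table, were raised by 1.

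The test between genotypes was limma's moderated linear model with a mean-variance trend (version 3.58.1, R 4.3.3), run on log2 values after adding a pseudocount of 1 to the FPKM. It took loci whose mean reached 5 FPKM in 1 of the genotypes or both. It was two-sided, and p-values were adjusted by Benjamini-Hochberg over all those loci, with a threshold of 0.05. Each fit held the 6 libraries of its 2 genotypes. The labels tie no library to a cross or an animal, so p-values measure the spread between these kidneys. Single genes were also compared by the exact two-sided permutation test. The fit was tested on simulated data. It called 0% of changes of 1.2-fold, 24.5% to 32% of 1.5-fold and 70% to 78% of 2-fold in the 3 comparisons. These changes were set only in loci above the FPKM minimum. Alternatives were pseudocounts of 0.1 and 3, an FPKM minimum of 1 or none, median-ratio and quantile rescaling, 9 libraries in 1 fit, no trend, the replicate number as a block, and each library left out. Other steps used Python 3.11.15, numpy 2.4.6, scipy 1.17.1, pandas 2.3.3 and matplotlib 3.10.9. The depth of a library relative to WT-1 was the most frequent ratio of the FPKM of loci under 0.05 FPKM in both.

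The 10 genes and all lists were chosen with earlier results of these data known. The genes named are the 10 members, *Ntn1* and *Foxd1*, the 4 most abundant genes of each of the 6 related lists, the most abundant gene of each list of another cell type with markers listed at 0, and the 5 loci most like the mean standardized profile of the members. Some genes that this rule names are not reported here. Other genes named are those that overlap a member on the opposite strand, related genes whose libraries do not overlap between genotypes, and genes chosen after their values were seen. Positions are those of the deposited table, and strand and overlaps come from GENCODE and RefSeq annotation.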

Additional observations from a re-analysis of the deposited data

How the results depend on the processing

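Under the 9 alternatives that keep all libraries (2 other pseudocounts, 2 other FPKM minimums, 2 rescalings, all libraries in 1 fit, no trend and the replicate block), limma called 0 loci in each comparison. Only the pseudocounts and the rescalings can move a log2 difference, and under these no tested proximal tubule gene changed sign. The other alternatives leave the log2 difference as it was, so the sign could not change there. For numbers 1, 2 and 3, the deviations of same-numbered libraries correlated across loci at r = -0.31, 0.05 and -0.13 in MUT and HET, 0.55, -0.26 and -0.03 in MUT and WT and -0.20, -0.06 and 0.17 in HET and WT. In no comparison were all 3 above 0.1, and no label ties a number to a cross, so the numbers were not taken to pair the kidneys. With the replicate block, limma called 0 loci, with 494, 201 and 233 at an unadjusted p under 0.05 for MUT against HET, MUT against WT and HET against WT.

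Leaving out 1 library at a time gave 0 to 3 called loci in each of the 3 comparisons, none of them a proximal tubule gene. These fits leave 2 libraries in a genotype, and the cause was not tested. Signs changed in them for some genes. In MUT against HET the log2 difference ranged from -0.26 to 0.035 for *Lrp2*, from -0.23 to 0.34 for *Slc34a1*, from -0.40 to 0.14 for *Slc22a6*, from -0.45 to 0.073 for *Slc27a2*, from -0.055 to 0.20 for *Aqp1* and from -0.75 to 0.18 for *Fbp1*. In MUT against WT it ranged from -0.15 to 0.28 for *Hnf4a* and from -0.013 to 0.23 for *Aqp1*, and in HET against WT from -0.28 to 0.031 for *Hnf4a* and from -0.088 to 0.15 for *Aqp1*. The other members tested kept their sign, though some moved widely. In MUT against WT *Fbp1* ranged from -1.16 to -0.23, *Slc34a1* from -0.52 to -0.039 and *Slc3a1* from -0.77 to -0.061. In HET against WT *Slc34a1* ranged from -0.60 to -0.070.

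With 3 kidneys a genotype, the exact test of a single gene cannot pass 0.05, and the intervals given hold changes of either sign for most genes. *Cubn* and *Slc5a2* were under the FPKM minimum in every comparison and *Slc3a1* in 1. The values without HET-2 of the correlations and of the counts of genes whose libraries do not overlap were added after seeing the data. Sex and position within a litter were not examined.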

Other observations

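Outside HET-2, the library with liver RNA, where it was at 217 FPKM, *Afp*, the alpha-fetoprotein gene counted among the liver markers, was highest in the kidneys where the proximal tubule genes were highest. It was at 31.0, 32.3 and 43.5 FPKM in WT-1, WT-2 and WT-3, at 29.3 and 23.9 FPKM in HET-1 and HET-3, and at 22.8, 44.3 and 22.6 FPKM in MUT-1, MUT-2 and MUT-3. *Alb* did not share this order, at 1.02 FPKM in MUT-2 but 4.77 in HET-3 and 3.30 in MUT-3. The gene was chosen after its values were seen, and no test was made.

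Genes of the thick ascending limb and distal tubule had the same low kidneys. *Slc12a1*, the sodium-potassium-chloride cotransporter of the thick ascending limb, was at 33.6, 19.6 and 32.2 FPKM in WT, 19.2, 19.7 and 15.3 in HET and 18.4, 28.3 and 11.9 in MUT. *Slc12a3*, the thiazide-sensitive cotransporter of the distal tubule, ranged from 0.187 FPKM in MUT-3 to 4.06 in WT-1. The lowest library of each Cre genotype was number 3 for both genes, as for the 10 proximal tubule genes. *Six2*, the transcription factor of nephron progenitors, was at 57.8 FPKM in WT-3 and 107 in MUT-3, its lowest and highest libraries. It was at 82.3 FPKM in HET-3 and at 89.7 FPKM in MUT-2. These genes were also chosen after their values were seen.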
